A study of Mus musculus with 2 samples.

Results

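Slc17a6 neurons of the mouse brain were taken from a droplet single-cell RNA dataset as cells with at least 1 UMI (a counted RNA molecule) of Slc17a6 and at least 1 of Snap25, Syt1 or Meg3, and with 0 UMIs of Slc17a7, Gad1, Gad2 and Gabra6. They numbered 209 of the 9367 total-brain cells that had 500 or more detected genes and no more than 10% of UMIs from mitochondrial genes, which is 2.23%, and the whole series held 19443 such cells. The same rule found 0 of 10076 cells in sorted brain, and a count of 0, taken as 3 counts, allows a share of up to 0.0298%. The total brain sample held unsorted cells of wild-type and STING-KO mice of both sexes, aged 2 and 24 months by its title (its age label gives the older age as 240 months). The sorted brain sample, sorted by flow cytometry with a gate that the labels do not give, came from male mice of 3 and 12 months with the same genotypes, and the design text groups 2 mice per genotype and age. Each sample is a single pooled library set, so age, genotype and sex could not be separated, no test between conditions was possible and no p-value is given. The barcodes of total brain carried 4 suffixes, which no label ties to an age or a genotype.

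Glutamatergic neurons load their vesicles through vesicular glutamate transporters. Slc17a6 encodes VGLUT2, the main form in the thalamus, hypothalamus, midbrain and hindbrain, whereas Slc17a7 encodes VGLUT1, the main form in the adult cerebral cortex, hippocampus and cerebellar granule cells. Thalamic relay neurons carry sensory and motor signals to the cortex, and their identity is associated with transcription factors such as Shox2, Lhx9 and Tcf7l2 and with netrin-G1, the product of Ntng1, an adhesion protein on thalamocortical axons.

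The 209 cells held 607942 UMIs, with a median of 1902 per cell and a range of 570 to 38750. They were compared with 2165 Slc17a7 neurons (6159424 UMIs, median 1853) and 1121 Gad neurons (3315997 UMIs, median 1668) of the same library, chosen by the mirrored rules. Levels are UMIs summed over a set of cells and scaled to counts per 1e6 UMIs (CPM), with exact Poisson 95% intervals that cover counting error only. In the Slc17a6 neurons 1 UMI is worth 1.64 CPM and the floor of 3 counts lies at 4.93 CPM. The 10 deepest Slc17a6 neurons held 23.1% of their UMIs, and the deepest held 6.37%. Suffixes 1 to 4 held 18, 31, 94 and 66 of the cells, or 1.65%, 2.11%, 2.58% and 2.09% of their filtered cells. Median UMIs of the Slc17a6 neurons were 1152.5, 1492, 2247.5 and 2560.5 in suffixes 1 to 4. A barcode sequence seen in another suffix was found in 2 of the 209 cells, and none was shared with sorted brain.

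The rule itself sets Slc17a6, which averaged 526 CPM [470 to 587], and sets Slc17a7, Gad1, Gad2 and Gabra6 to 0. Of the 209 cells, 143 held 1 UMI of Slc17a6, 44 held 2, 12 held 3 and 10 held more. Ntng1 stood at 487 CPM in the cells with 1 UMI of Slc17a6, at 449 CPM with 2, at 963 CPM with 3 and at 583 CPM above 3, and median depth was higher in the last of these (7345.5 UMIs, against 1627 in the first). Of the 458 filtered cells with a UMI of Slc17a6, 183 were left out for a UMI of Slc17a7, 98 for Gad1 or Gad2 and 44 for Gabra6, and 68 of these had more than 1 of these genes. Another 8 had no UMI of Snap25, Syt1 or Meg3. Just outside the rule, the 55 cells with exactly 1 UMI of Slc17a7 and none of the other genes had 939 CPM of Ntng1 and 82.7 CPM of Shox2. The 3234 cells that met every other criterion but had no UMI of Slc17a6 had 44.9 CPM of Ntng1 and 3.53 CPM of Shox2. They need not be neurons, as 1 UMI of Snap25, Syt1 or Meg3 sufficed and no glial or vascular gene was excluded.

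A single UMI can come from free RNA in a droplet. Slc17a6 UMIs were found in 4.45% of 1214 microglial cells (median 4075 UMIs) and in 3.03% of 1022 endothelial cells (median 5391 UMIs), cell types that should lack the gene. With each cell thinned to 1000 UMIs those shares were 1.76% and 0.851%. Markers of other cell types also varied among the Slc17a6 neurons. In 39 of them over 1% of UMIs lay in 7 lists of glial, vascular, choroid plexus and red cell genes, and in 4 over 5%, with a highest share of 32.0%. These 4 cells held 96.1% of the red cell UMIs and 0 UMIs of Ntng1, and they had 867 CPM of the neuronal RNA Meg3. The 39 cells had 6281 CPM of Meg3, and the other 170 had 42592 CPM. Ntng1 was found in 5 of the 39 and in 88 of the 170.

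Several thalamic genes, among them Ntng1, Shox2, Lhx9 and Tcf7l2, were higher in Slc17a6 neurons than in either other set. Ntng1 was found in 93 of the 209, or 44.5% [37.6 to 51.5], against 21.4% of Slc17a7 neurons and 15.2% of Gad neurons. Its share was 11.5% in microglial and 7.24% in endothelial cells. In cells thinned to 1000 UMIs, which left out 38 Slc17a6 neurons, 447 Slc17a7 neurons and 245 Gad neurons, Ntng1 was found in 33.3% of Slc17a6 neurons, 12.8% of Slc17a7 neurons and 9.47% of Gad neurons, and in 4.58% of microglial and 2.34% of endothelial cells. Its level in suffixes 1 to 4 was 635, 906, 586 and 342 CPM in Slc17a6 neurons, against 139, 173, 130 and 155 CPM in Slc17a7 neurons. All 4 values of the Slc17a6 neurons lay above all 4 of the Slc17a7 neurons. Over all suffixes Ntng1 was at 525 CPM [469 to 586], 3.60-fold [3.16 to 4.09] its level in Slc17a7 neurons (146 CPM) and 5.88-fold [5.00 to 6.91] that in Gad neurons (89.3 CPM). Ntng1 lies on chromosome 3 at 109780040 to 110144011 on the minus strand, and Shox2 on chromosome 3 at 66971727 to 66981771 on the minus strand (GRCm38).

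Shox2, a homeodomain factor of thalamic neurons, was rarer but had the higher ratio. It was found in 27 Slc17a6 neurons, or 12.9% [8.69 to 18.2], against 0.508% of Slc17a7 neurons and 0.357% of Gad neurons, with 0.659% in microglial and 0.783% in endothelial cells. Thinned shares of Shox2 were 4.68% in Slc17a6 neurons (8 of 171), 0.175% in Slc17a7 neurons and 0 of 876 Gad neurons (upper bound 0.420%, exact Clopper-Pearson). Its level in suffixes 1 to 4 was 112, 19.7, 55.7 and 53.3 CPM in Slc17a6 neurons, against 0, 0, 2.05 and 3.87 CPM in Slc17a7 neurons. The groups of values did not overlap, and the lowest, in suffix 2, rests on 1 UMI. The ratio of Shox2 was 22.3-fold [11.8 to 44.2] over Slc17a7 neurons and 45.0-fold [16 to 175] over Gad neurons, where 4 UMIs were counted.

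Lhx9, a LIM-homeodomain factor of the developing thalamus, was found in 28 Slc17a6 neurons. Its level was 187, 19.7, 75.3 and 66.6 CPM in suffixes 1 to 4 of Slc17a6 neurons, against 4.29, 2.96, 6.57 and 8.51 CPM in Slc17a7 neurons. These values did not overlap either, and the ratio of Lhx9 was 10.6-fold [6.79 to 16.6]. Tcf7l2, a factor of the Wnt pathway made in thalamic and habenular neurons and also in glia, was found in 53 Slc17a6 neurons (25.4%). Its level was 37.4, 59.1, 347 and 173 CPM in suffixes 1 to 4 of Slc17a6 neurons, against 36.4, 16.3, 42.3 and 36.8 CPM in Slc17a7 neurons. Suffixes 3 and 4 of the Slc17a6 neurons were high for Tcf7l2, whereas suffix 1 held 1 UMI, too few to set against the Slc17a7 neurons. Pooled, Tcf7l2 was at 245 CPM in Slc17a6 neurons, 36.7 CPM in Slc17a7 neurons and 45.2 CPM in Gad neurons, with 69.0 CPM in microglial and 60.4 CPM in endothelial cells. Its unthinned share was 28.6% in the deeper microglial cells, and thinned shares of Tcf7l2 were 15.2% in Slc17a6 neurons and 7.67% in microglial cells.

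**Figure D1:**
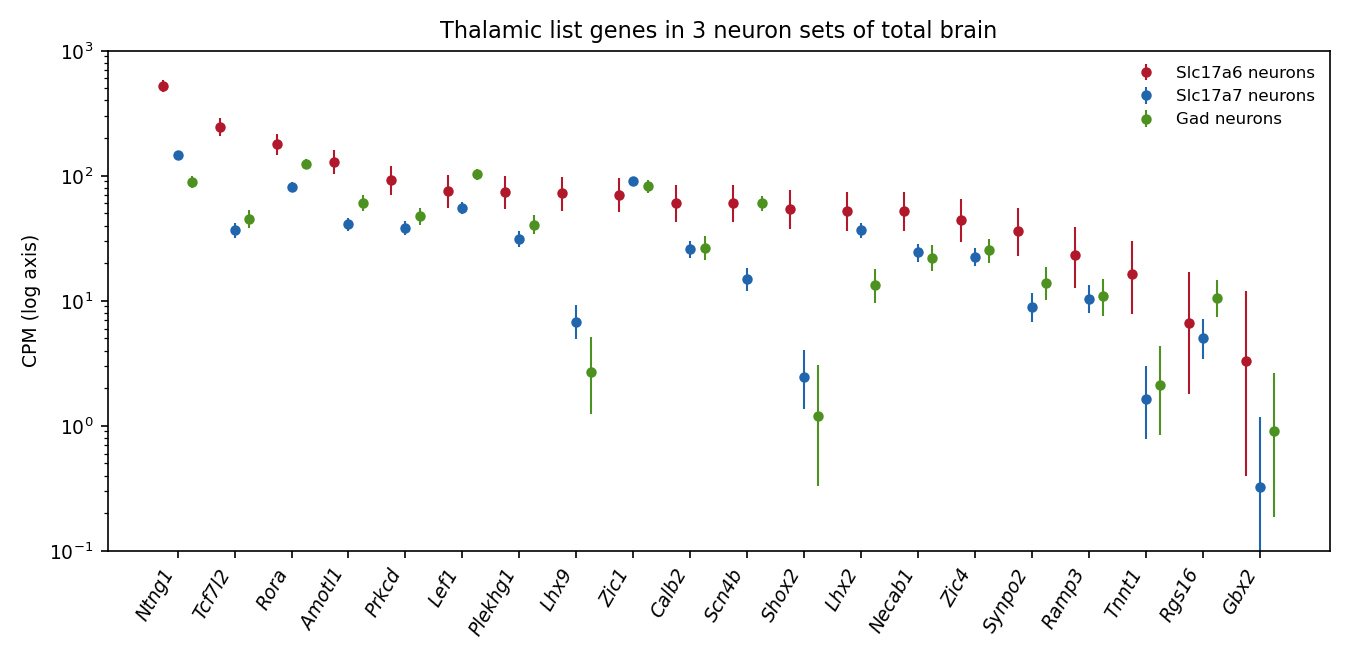
Levels of the 20 genes of the thalamic list, in CPM on a log axis, in Slc17a6 neurons (red), Slc17a7 neurons (blue) and Gad neurons (green) of total brain. Points are sums over all cells of a set and bars are exact Poisson 95% intervals for counting error only. Lhx9 and Shox2 were at 72.4 and 54.3 CPM in Slc17a6 neurons, against 6.82 and 2.44 CPM in Slc17a7 neurons, whereas the intervals of Zic1 and Lef1 overlap between these sets.

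Across all genes, a gene was called when it reached 50 CPM in 1 or both sets, had at least 10 UMIs over both and differed at least 2-fold with 1 CPM added to each level. Of 5527 genes measured against Slc17a7 neurons at that level, 209 were called higher (3.78%) and 250 lower (4.52%). In the 3 suffixes with at least 20 cells of each set, the levels did not overlap for 175 of the higher genes (3.17% of those measured) and 191 of the lower (3.46%), and genes named by rank come from these. Without suffix 3, which left 115 Slc17a6 neurons, the counts of 2-fold calls were 337 higher and 387 lower, in place of 209 and 250. Of the 20 thalamic genes, 14 reached the level, and 11 of the 14 were called higher and 0 lower, with a median log2 ratio of 1.23 against 0.06 over all genes. Of the 14, 10 reached 50 CPM only in Slc17a6 neurons, and Ntng1, Lef1, Rora and Zic1 reached it in both sets. The level filter thus partly fixes the direction of the 10, and the count and median are given as a description only. The 11 were Shox2, Lhx9, Tcf7l2, Scn4b, Ntng1, Amotl1, Prkcd, Plekhg1, Calb2, Rora and Necab1. Without the cells with over 1% of UMIs in lists of other cell types, 11 of 14 were called higher, with a median of 1.97. With at least 2 UMIs of the defining genes, which left 66 Slc17a6 neurons, 14 of 16 were called higher, with a median of 2.20.

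Rora, a nuclear receptor and another gene of the thalamic list, was at 179 CPM in Slc17a6 neurons and 82.0 CPM in Slc17a7 neurons. It was at 125 CPM in Gad neurons and at 120 CPM in endothelial cells. Prkcd, a protein kinase C, was at 92.1 CPM in Slc17a6 neurons, 38.5 CPM in Slc17a7 neurons and 47.3 CPM in Gad neurons, and at 131 CPM in microglial cells. Scn4b, a sodium channel beta subunit, was at 60.9 CPM in Slc17a6 neurons and 14.9 CPM in Slc17a7 neurons, but at 60.3 CPM in Gad neurons. Calb2 (calretinin) was at 60.9 CPM in Slc17a6 neurons, 25.8 CPM in Slc17a7 neurons and 26.5 CPM in Gad neurons. Necab1, a calcium-binding protein, was called higher, but its suffix values overlapped between the sets. The 3 genes of the list that reached the level without a call were Lhx2, Zic1 and Lef1. Zic1 was at 70.7 CPM in Slc17a6 neurons and 90.8 CPM in Slc17a7 neurons. Gbx2, a thalamic patterning factor, had 2 UMIs in Slc17a6 neurons.

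At least 1 thalamic gene was found in 174 of the 209 Slc17a6 neurons (83.3%). After thinning, at least 1 was found in 71.3% of Slc17a6 neurons, 41.0% of Slc17a7 neurons and 47.6% of Gad neurons, and at least 2 in 36.3% of Slc17a6 neurons, 10.6% of Slc17a7 neurons and 12.1% of Gad neurons. Ntng1, Shox2 and Tcf7l2 were unevenly spread over the cells. None of the 3 was found in 92 Slc17a6 neurons (median 1577.5 UMIs), and all 3 were found in 12 (median 4349 UMIs). Of the 27 cells with Shox2, 21 had Ntng1, and of the 28 cells with Lhx9, 22 had Ntng1. Ntng1 was found in 39.6% of the cells without Shox2. The cells with Shox2 were deeper, with a median of 2924 UMIs against 1839 in the cells without it, and the part of depth in this overlap was not tested.

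**Figure D2:**
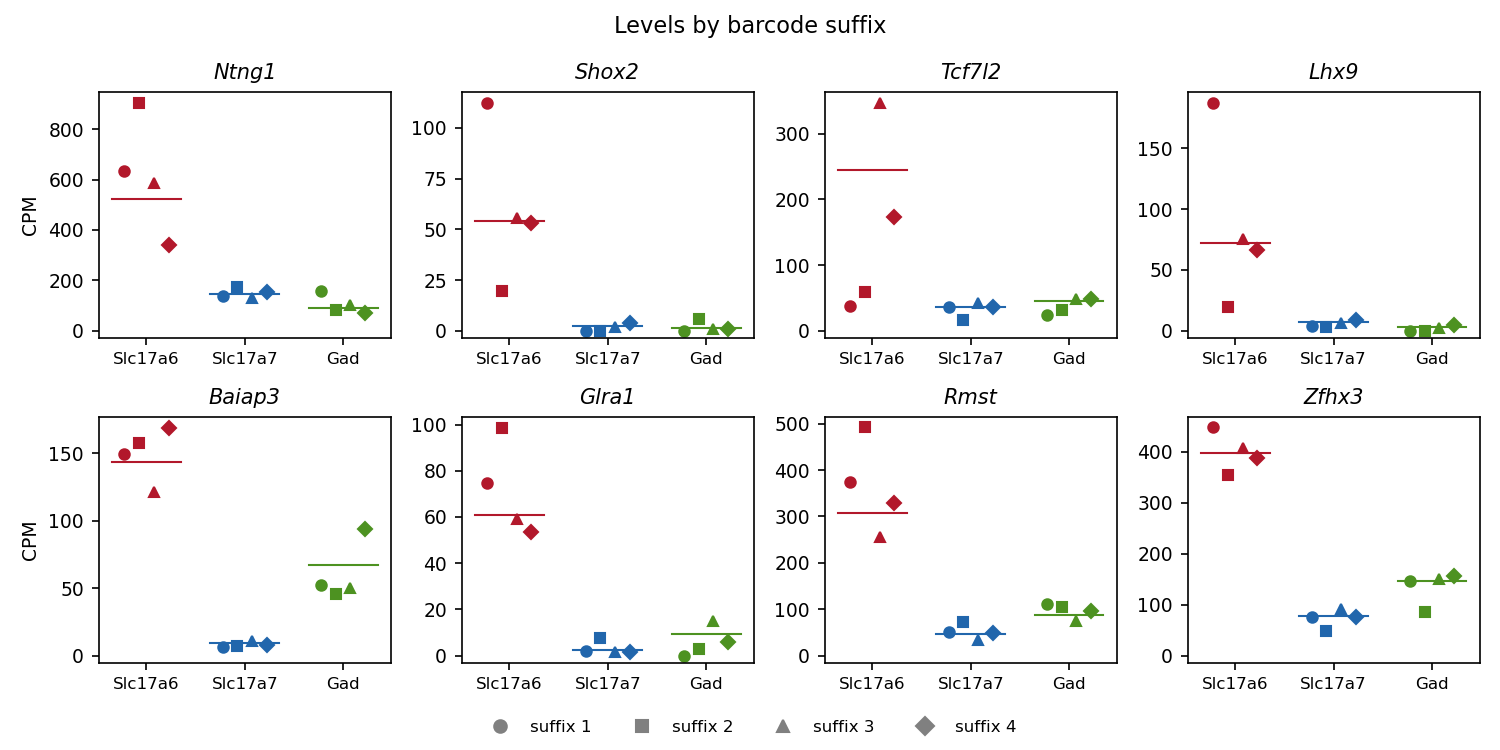
Levels of 8 genes in CPM in each of the 4 barcode suffixes of Slc17a6 neurons (red), Slc17a7 neurons (blue) and Gad neurons (green), with a line at the level over all suffixes. Baiap3 lies between 121 and 169 CPM in the suffixes of Slc17a6 neurons, against 6.43 to 10.7 CPM in those of Slc17a7 neurons, whereas Tcf7l2 spans 37.4 to 347 CPM in Slc17a6 neurons.

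Outside the thalamic list, Glra1, Baiap3, Zcchc12 and Tac1 had the highest ratios over Slc17a7 neurons among the named genes. Baiap3, a Munc13-family protein of dense-core vesicle release, stood at 149, 158, 121 and 169 CPM over suffixes 1 to 4 of Slc17a6 neurons, against 6.43, 7.41, 10.7 and 8.13 CPM in Slc17a7 neurons. No value overlapped, and the ratio of Baiap3 was 16.03-fold [11.3 to 22.9] over Slc17a7 neurons and 2.13-fold [1.64 to 2.74] over Gad neurons. Glra1, the adult alpha subunit of the glycine receptor, was at 74.7, 98.4, 59.0 and 53.3 CPM in Slc17a6 neurons, against 2.14, 7.41, 1.64 and 1.55 CPM in Slc17a7 neurons. The Glra1 values did not overlap, and 23 Slc17a6 neurons held its 37 UMIs, a ratio of 26.8-fold [14.1 to 53.6]. Tac1, the substance P precursor, was at 54.3 CPM in Slc17a6 neurons, 5.84 CPM in Slc17a7 neurons and 46.1 CPM in Gad neurons.

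Rmst, a long non-coding RNA, stood at 374, 492, 256 and 329 CPM over suffixes 1 to 4 of Slc17a6 neurons, against 51.4, 72.6, 34.1 and 49.5 CPM in Slc17a7 neurons. Zfhx3, a zinc finger homeobox factor, was at 448, 354, 406 and 386 CPM in Slc17a6 neurons, against 75, 47.4, 91.2 and 75.1 CPM in Slc17a7 neurons. Both genes were apart in every suffix. Rmst had 88.4 CPM in Gad neurons and was found in 26.9% of Slc17a6 neurons after thinning, against 4.37% of Slc17a7 neurons and 2.11% of microglial cells. Zfhx3 had 146 CPM in Gad neurons, microglial cells held 315 CPM of it, and thinned shares of Zfhx3 were 27.5% in Slc17a6 neurons and 27.8% in microglial cells. The other genes named by rank over Slc17a7 neurons were Zcchc12, Grin2d, Ccdc187, Abhd12b, Nexn, Col18a1, Arhgap18, Kcnip1, Tmem91, Lhfpl3, Nrsn2 and Cgn, at ratios of 4.91-fold (Cgn) to 9.74-fold (Zcchc12). For Col18a1, 30 of the 57 UMIs lay in 1 cell.

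The hypothalamic, habenular, and midbrain and hindbrain lists were thinly covered at this depth. Of the 20 hypothalamic genes, Baiap3 and Tac1 reached the level and were called higher than in Slc17a7 neurons, against 3.78% of all genes. They reached 50 CPM only in Slc17a6 neurons of that comparison, so the level filter partly fixes their direction. Of the 20, 5 had 0 UMIs in Slc17a6 neurons. After thinning, at least 1 hypothalamic gene was found in 23.4% of Slc17a6 neurons, 4.77% of Slc17a7 neurons and 19.98% of Gad neurons. Oxt, the oxytocin precursor, had 19 UMIs, all in 1 Slc17a6 neuron. Of the 26 midbrain and hindbrain genes 1 reached the level, Meis2, at 181 CPM in Slc17a6 neurons, 118 CPM in Slc17a7 neurons and 351 CPM in Gad neurons. At least 1 of these 26 genes was found after thinning in 26.9% of Slc17a6 neurons, 16.4% of Slc17a7 neurons and 33.6% of Gad neurons. Of 9 habenular genes 2 reached the level, 0 were called higher and 1, Nwd2, lower.

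**Figure D3:**
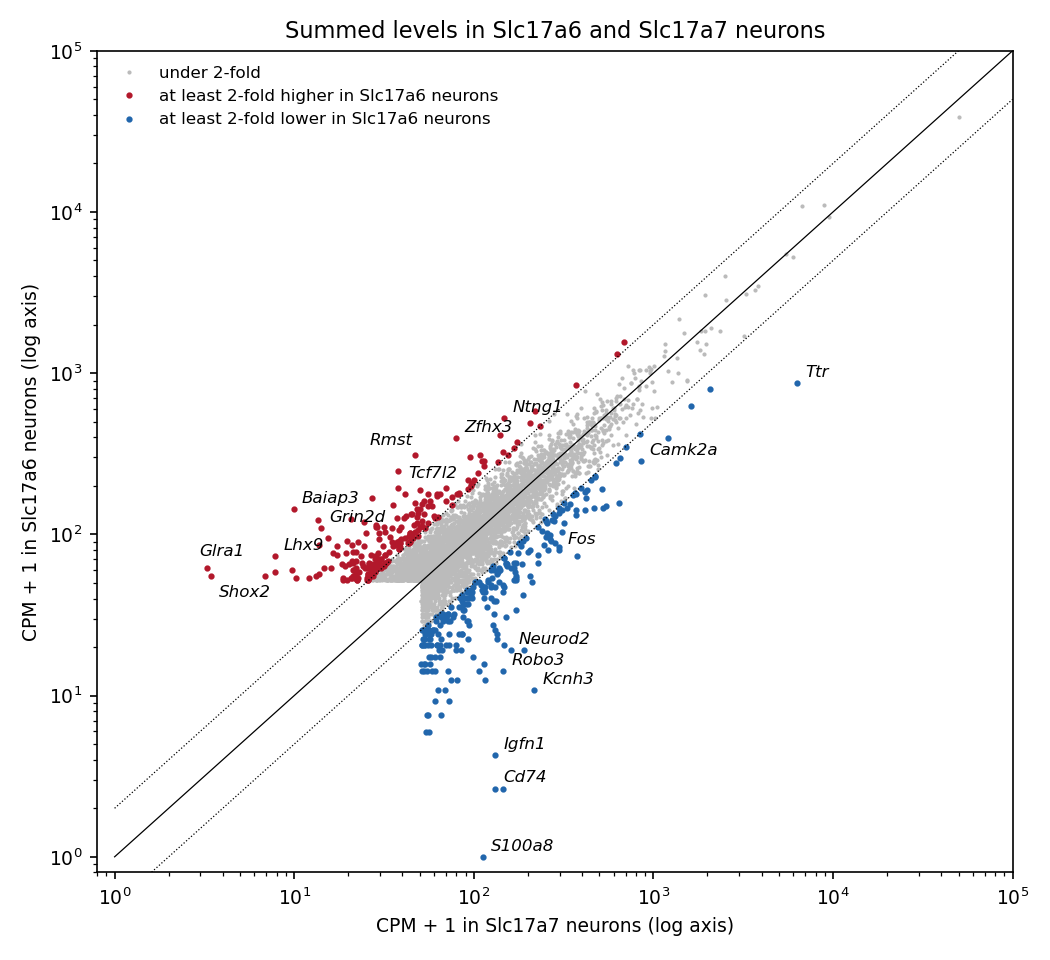
Each gene that reached 50 CPM in 1 or both sets by its level in Slc17a6 neurons (vertical) and Slc17a7 neurons (horizontal), as CPM + 1 on log axes, without the genes of the rules. The solid line marks equal levels and dotted lines a 2-fold difference. The 209 genes called higher (red) include Glra1, Shox2 and Baiap3, and the 250 called lower (blue) include Igfn1, Kcnh3 and Neurod2.

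Of 16 genes of cortical and hippocampal neurons 9 reached the level. Of these 0 were called higher and 5 lower in Slc17a6 neurons than in Slc17a7 neurons, with a median log2 ratio of -1.33. Over all genes 3.78% were called higher and 4.52% lower. Neurod1, Neurod2 and Lamp5 reached the level only in Slc17a7 neurons, so the level filter partly fixes their direction. Against Gad neurons 7 reached it, Rorb was called higher and Lamp5 lower, and the median was 0.06. The shares over all genes were 2.67% higher and 6.52% lower there. Summed levels of the list were 949 CPM in Slc17a6 neurons, 2163 CPM in Slc17a7 neurons and 925 CPM in Gad neurons. Neurod2, a transcription factor of cortical projection neurons, was at 18.1 CPM [9.03 to 32.4] in Slc17a6 neurons and 159 CPM in Slc17a7 neurons, 8.80-fold [4.90 to 17.7] lower. Camk2a, the alpha subunit of CaMKII, stood at 635, 276, 246 and 293 CPM over suffixes 1 to 4 of Slc17a6 neurons, against 744, 973, 783 and 901 CPM in Slc17a7 neurons, and at 272 CPM over all Gad neurons. The suffix values of Camk2a did not overlap between Slc17a6 and Slc17a7 neurons, although suffix 1 of the Slc17a6 neurons came close. Neurod1, Nrgn and Lamp5 made up the 5.

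By rank, the lowest genes against Slc17a7 neurons included Igfn1 (3.29 CPM in Slc17a6 neurons, 131 CPM in Slc17a7 neurons), the potassium channel Kcnh3 (9.87 and 215 CPM), the guidance receptor Robo3 (13.2 and 145 CPM), the VIP receptor Vipr1 (4.93 and 55.4 CPM), the inositol trisphosphate kinase Itpka (8.22 and 72.1 CPM), Ankrd33b, Tmem121b and Tnfrsf25. Igfn1 had 2 UMIs in Slc17a6 neurons, and the ratio is 39.8-fold lower with a counting interval of 11.0 to 329. Genes of white blood cells also ranked here. S100a8, a calprotectin subunit of neutrophils, had 0 UMIs in Slc17a6 neurons and was at least 22.6-fold lower by the floor over the group, and 677 of its 686 UMIs in Slc17a7 neurons lay in suffix 1. Without suffix 1, S100a8 had 0 UMIs in Slc17a6 neurons and 9 UMIs in Slc17a7 neurons (1.58 CPM, under the floor of 4.93 CPM), so no difference was detectable there. S100a9, its partner, had 1 UMI in Slc17a6 neurons and 884 in Slc17a7 neurons, of which 872 lay in suffix 1 and 12 (2.11 CPM) in the others. Cd74, the class II invariant chain, had 1 UMI in Slc17a6 neurons, and its level in Slc17a7 neurons ranged over suffixes between 10.7 and 304 CPM.

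Receptor and channel families differed by member. All 6 NMDA receptor subunits reached the level. Grin2d and Grin3a were called higher than in Slc17a7 neurons and Grin2a and Grin2b lower, against 3.78% and 4.52% of all genes. Grin2d and Grin3a reached 50 CPM in Slc17a6 neurons but not in Slc17a7 neurons, so the level filter partly fixes their direction. Compared with Gad neurons, 0 of the 6 were called. Grin2d, a subunit known from the diencephalon and brainstem, stood at 112, 59.1, 124 and 97.7 CPM over suffixes 1 to 4 of Slc17a6 neurons, against 12.9, 14.8, 12.7 and 13.2 CPM in Slc17a7 neurons. Grin2a, the main adult partner subunit in the cortex, was at 149, 158, 131 and 124 CPM in Slc17a6 neurons, against 401, 492, 338 and 365 CPM in Slc17a7 neurons. Neither gene overlapped between the sets in any suffix. None of the 4 AMPA receptor subunits was called, and their median log2 ratio was -0.57. Of 9 GABA-A and glycine receptor subunits at the level, Glra1 was the 1 called higher.

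For vesicle release, 16 of 19 genes reached the level, 2 were called higher and 3 lower, against 3.78% and 4.52% of all genes. Syt2, a fast calcium sensor of hindbrain and other subcortical synapses, stood at 0, 217, 164 and 235 CPM over suffixes 1 to 4 of Slc17a6 neurons, against 40.7, 56.3, 55.1 and 43.3 CPM in Slc17a7 neurons. Suffixes 2, 3 and 4 of the Slc17a6 neurons were higher for Syt2, whereas the 0 of suffix 1 comes from 26769 UMIs in 18 cells, too few to set against 40.7 CPM. Unc13c was also higher, and Stx1a (32.9 CPM in Slc17a6 neurons, 171 CPM in Slc17a7 neurons), Sv2b and Cplx2 were lower. Of 23 potassium channel genes at the level, Kcnc2 (Kv3.2, a fast-spiking channel; 125 CPM in Slc17a6 neurons, 39.6 CPM in Slc17a7 neurons) and Kcnip1 were called higher and Kcnt2 and Kcnj6 lower, counts near those background shares, from which nothing is read about the family. Of 4 neurofilament genes Nefh, the heavy subunit of large axons, was called higher at 67.4 CPM in Slc17a6 neurons and 19.97 CPM in Slc17a7 neurons. None of 5 T-type calcium and HCN channel genes was called against Slc17a7 neurons. Over Gad neurons 1 of 5, Cacna1g, was called higher, where the share over all genes was 2.67%. Cacna1g, the main T-type channel of thalamic relay neurons, was at 235 CPM in Slc17a6 neurons, 140 CPM in Slc17a7 neurons and 103 CPM in Gad neurons, a ratio of 2.29-fold over the last. Of 16 adhesion genes at the level against Slc17a7 neurons, Ntng1, Cdh4, Robo1 and Cdh13 were called higher and Cdh11 and Slit3 lower. The shares over all genes were 3.78% and 4.52%. Cdh4, Robo1 and Cdh13 reached 50 CPM only in Slc17a6 neurons, and Cdh11 and Slit3 only in Slc17a7 neurons. The level filter thus partly fixes the direction of these genes. Over Gad neurons Ntng1 and Cdh4 were also called higher, whereas Robo1 and Cdh13 were not.

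Immediate early genes, which are switched on by neuronal activity and by tissue handling, had lower summed levels in Slc17a6 neurons. Of 13 such genes 12 reached the level and all 12 were called lower than in Slc17a7 neurons, with a median log2 ratio of -1.62. Over all genes 4.52% were called lower, and the median was 0.06. Fosb, Ier2, Egr3 and Arc reached the level only in Slc17a7 neurons, so the level filter partly fixes their direction. The other 8 reached it in both sets. Fos stood at 224, 59.1, 111 and 22.2 CPM over suffixes 1 to 4 of Slc17a6 neurons, against 647, 240, 335 and 216 CPM in Slc17a7 neurons, and at 1519 CPM in microglial cells. Fos was lower within each suffix, although suffix 1 of the Slc17a6 neurons exceeded suffix 4 of the Slc17a7 neurons. Microglial markers moved with this list. Their summed level was 974 CPM in Slc17a6 neurons, 2040 CPM in Slc17a7 neurons and 1626 CPM in Gad neurons. Of the 8 markers 5 were called lower than in Slc17a7 neurons, against 4.52% of all genes, and none was at 0. Without the cells with over 1% of UMIs in lists of other cell types, 4 of 10 immediate early genes were called lower. The median was then -0.81, and with every cell given the same weight 6 of 13 were called lower. Against Gad neurons 9 of 10 were called lower, where the share over all genes was 6.52%. With every cell given the same weight 2 of 10 were called lower than in Gad neurons. Beyond those values the part of other cell types' RNA was not tested. Ttr, the transthyretin gene of the choroid plexus, was at 867 CPM in Slc17a6 neurons and 6335 CPM in Slc17a7 neurons, where its suffix values ranged between 801 and 12103 CPM.

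Against Gad neurons, 152 of 5690 genes were called higher (2.67%) and 371 lower (6.52%), and suffix levels did not overlap for 133 (2.34%) and 310 (5.45%). Without suffix 3 the counts of 2-fold calls were 288 and 569. Without cells above the 95th percentile of UMIs of their suffix they were 96 and 162, and with every cell weighing the same, chosen after seeing the data, 119 and 167. Of 14 thalamic genes at the level, 8 were called higher and 0 lower, with a median log2 ratio of 1.13 against 0.10 over all genes, and 8 of the 14 reached 50 CPM only in Slc17a6 neurons. With 10 CPM added to each level 5 of the 14 were called higher, with the looser filter of 200 genes and 20% mitochondrial UMIs 5 of 12, and without suffix 4 6 of 15. The highest were Abhd12b (85.5 CPM in Slc17a6 neurons, 1.51 CPM in Gad neurons), Shox2, Lhx9, the phosphatase Ptpn3, Glra1, Ntng1, Fam19a1, Tcf7l2, the neuritin gene Nrn1 and Bdnf, a neurotrophin (51.0 CPM in Slc17a6 neurons, 11.2 CPM in Gad neurons). Abhd12b came from 11 Slc17a6 neurons with up to 13 UMIs each. Ptpn3, Nrn1 and Bdnf were not called against Slc17a7 neurons, where they had 50.5, 130 and 51.0 CPM. Striatal projection neuron genes were lower in 5 of 5, and inhibitory neuron genes lower in 5 of 6. Both comparisons share the Slc17a6 neurons, and of 5333 genes at the level in both, 71 were called higher in both. Among the 71 were Glra1, Shox2, Baiap3, Lhx9, Rmst, Tcf7l2, Zfhx3, Syt2, Kcnc2, Nefh and Calb2.

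The STING gene, listed as Tmem173, had 1 UMI in Slc17a6 neurons, in suffix 4 (1.64 CPM, under the floor of 4.93 CPM). It was at 10.2 CPM in Slc17a7 neurons and 7.84 CPM in Gad neurons. Wild-type and STING-KO mice were pooled and their mix in each set is not known, so no difference is read from these values. Of the cytosolic DNA sensing list, 8 genes reached the level against Slc17a7 neurons and 0 were called. Against Gad neurons Bst2, Ifit1, Ifitm3 and Isg15, which are interferon-induced, were called lower of 10, compared with 6.52% of all genes. Isg15, Bst2 and Ifit1 reached 50 CPM only in Gad neurons, so the level filter partly fixes their direction. Isg15 was at 19.7 CPM in Slc17a6 neurons, with 7 of its 12 UMIs in 1 cell, and at 72.7 CPM in Gad neurons, where suffix 2 held 257 CPM. Endothelial genes moved with these: 5 of 6 were called lower than in Gad neurons, none was at 0, and their summed level was 1712 CPM in Slc17a6 neurons and 3954 CPM in Gad neurons. Of the 8 microglial markers 1 was called lower, with sums of 974 CPM in Slc17a6 neurons and 1626 CPM in Gad neurons. The part of either cell type in the interferon-induced genes was not tested.

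Clustering divided the Slc17a6 neurons into 8 groups, numbered 0 to 7 and described here by their leading genes only. The groups came from the same counts, so no group was tested against the rest. Group 0, with 29 cells, was led by Abhd12b, Cpne7, Ptpn3, Plekhg1 and Prkcd. It had the highest summed level of the thalamic list, 5433 CPM, and Ntng1 was found in 24 of its 29 cells at 1560 CPM. Group 1 (32 cells) was led by Cnih3, B4galnt1 and Pvalb, and group 4 (32 cells) by Bcl11b, Zbtb20 and Shisa9, with Ntng1 at 751 and 821 CPM. Group 6 (20 cells) was led by Scn4b, Glra1 and Syt2, and held 218 CPM of Glra1. Group 3 (29 cells) was led by Xist and Chrnb2, and mice of both sexes were pooled here.

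The remaining groups were led by genes of other cell types. Group 5, with 36 cells, was led by genes that included the microglial genes C1qa and Ctss and had a summed microglial level of 5511 CPM, together with the highest Baiap3 (370 CPM) and Tac1 (173 CPM) of any group. Group 2, with 22 cells, was led by haemoglobin genes, Vtn, Flt1 and Cldn5, and had 5395 CPM of Meg3 and Ntng1 in 2 cells. Group 7, with 9 cells and a median of 895 UMIs, was led by genes that included the myelin genes Mobp, Mal and Mbp and had no UMI of Ntng1. Groups 2 and 7 go against the neuronal label, and the rule's name is kept for the whole. At resolutions 0.5 and 2 there were 6 and 14 groups.

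**Figure D4:**
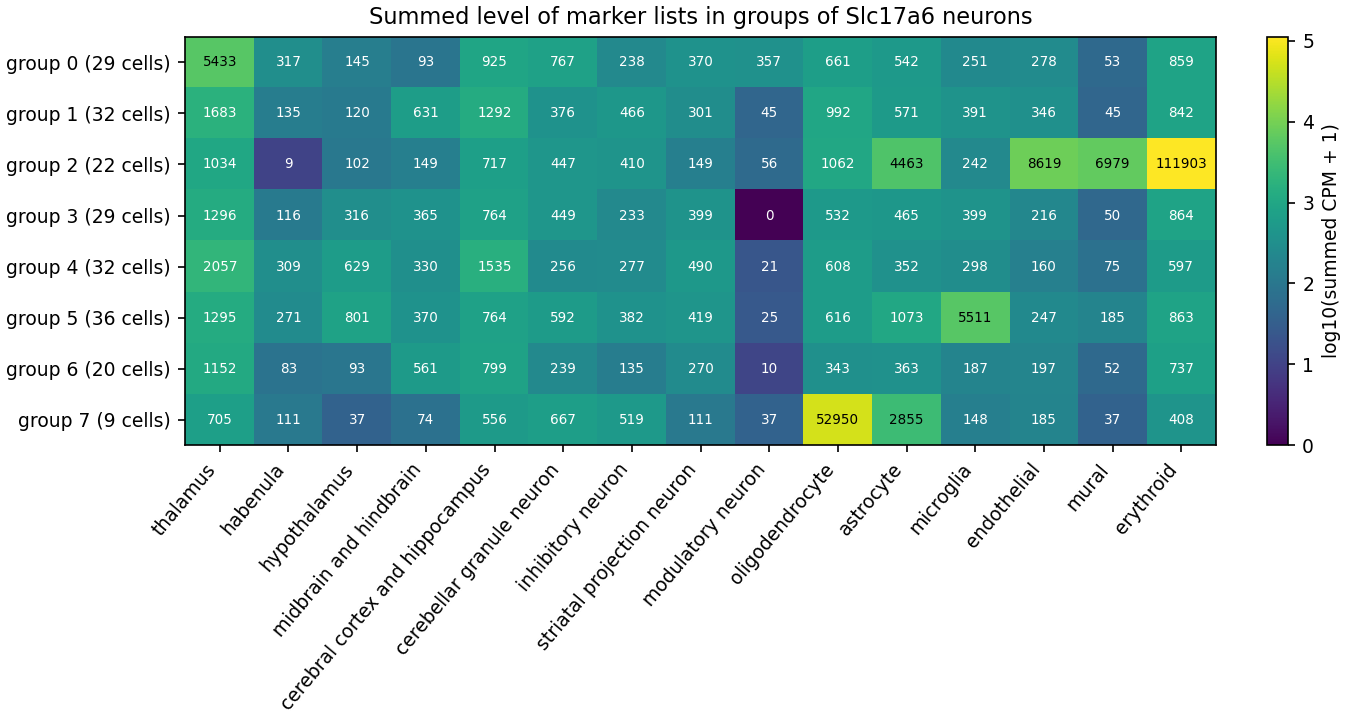
Summed level of 15 marker lists, in CPM (numbers) and as log10 of CPM + 1 (colour), in the 8 groups of Slc17a6 neurons. Group 0 has the highest thalamic sum (5433 CPM), while groups 2, 5 and 7 have the highest sums of red cell, microglial and oligodendrocyte genes.

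Slc17a6 neurons were thinned to 1000 UMIs, and the 57 with a UMI of Ntng1 after thinning were set against the 114 without. Before thinning, Ntng1 was found in 93 of the 209 cells, so the 114 may include cells that lost it in the draw. Of 4558 genes at the level, 327 were called higher (7.17%) and 554 lower (12.2%), and suffix levels did not overlap for 120 (2.63%) and 173 (3.8%). The 10 genes named higher were Hdac9, Nexn, Gabrd, Gfod1, Rcan2, Plekhg1, Dhps, Elmo2, Shisa9 and Atp8b2. Rcan2, a calcineurin regulator, had 14 UMIs in cells with Ntng1 and 4 in cells without, a ratio of 7-fold [2.20 to 29.2]. Gabrd, the delta subunit of extrasynaptic GABA-A receptors, had 8 UMIs with Ntng1 and 2 without. Of 9 thalamic genes at the level, Plekhg1, Lhx2, Lhx9 and Zic1 were called higher and Calb2 lower. Plekhg1 had 10 UMIs with Ntng1 and 3 without, a ratio of 6.67-fold [1.72 to 37.7]. In the cells with Ntng1 the floor of 3 counts lay at 52.6 CPM, above the 50 CPM of the call. The level thus does not place a gene above the floor, and these calls are given as a description only. The genes named lower, Epas1, Acap2, Gpr37l1, Mfge8 and Gnaz, had 0 UMIs in the cells with Ntng1, and Epas1, a hypoxia factor of vessels, was at least 2.83-fold lower by the floor over the group. Summed markers of other cell types differed in the same way: mural genes were at 158 CPM in cells with Ntng1 and 1202 CPM in cells without, astrocyte genes at 491 and 1693 CPM, and red cell genes at 947 and 4895 CPM. Their part in the genes called lower was not tested.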

How the data were processed

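The deposited matrices hold raw UMI counts of 31053 genes per barcode, with cells called by the authors with Cell Ranger 3.0.2 and the mm10 build per the submitters' processing notes (3.1.0 for total brain per the file headers). Positions of genes were looked up by ID in the GENCODE M21 annotation of GRCm38, where 31011 IDs were found. The files held 0 columns of other samples. Total brain had 14674 barcodes (48226525 UMIs), of which 9367 were kept.

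Raw counts were summed per set and scaled to all UMIs. Gad neurons had a UMI of Gad1 or Gad2 and 0 of Slc17a6, Slc17a7 and Gabra6. Microglial cells had at least 3 UMIs of C1qa, C1qb and C1qc, and endothelial cells at least 3 of Cldn5, Flt1 and Ly6c1. Ratios of sums have exact binomial 95% intervals and shares exact Clopper-Pearson intervals; all cover counting error only. Named genes were called at least 2-fold with CPM ranges apart over suffixes 2, 3 and 4, which held at least 20 cells of each of the 3 neuron sets (10, 29 and 14 cells with Ntng1 and 15, 48 and 40 without in the split by Ntng1), without predicted, mitochondrial and ribosomal protein genes, ranked by log2 ratio: the first 20 higher and 12 lower over Slc17a7 neurons, 10 higher over Gad neurons, and 10 higher and 5 lower between cells with and without Ntng1. The members, the 33 gene lists and these rules were chosen with earlier results of these data known. Groups came from counts scaled to 10000, 1000 variable genes, 15 components, 15 neighbours and Leiden resolution 1. Their leading genes were in at least 20% of the group's cells. Some leading genes are not reported here. Doublets were neither called nor removed. The calculation was tested on simulated data. Software was Python 3.11.15, scanpy 1.11.5 and, for TMM scaling factors, edgeR 4.0.16.

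Alternatives were other filters on cells, 2 UMIs of the defining genes, removal of shared barcodes, of cells with reads of other types or of very deep cells, suffix weights, leaving out each suffix, pseudocount, minimum level, scaling and thinning.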

Additional observations from a re-analysis of the deposited data

How the results depend on the processing

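Of 42 ratios of named genes to Slc17a7 or Gad neurons, 41 stayed at least 2-fold in the same direction under each of 16 alternatives. The 42 were picked by rank as the most extreme ratios of the same data, so most were likely to stay. The count is a description only and does not extend to the other called genes. S100a8 over Slc17a7 neurons is among the 41, but its log2 ratio was -1.37 without suffix 1, -1.63 with 1000 genes and 5% mitochondrial UMIs, -1.78 without cells with over 1% of other types' UMIs and -1.83 without cells above the 95th percentile of UMIs. Without suffix 1 it rests on 0 UMIs against 9, under the floor. The exception was S100a9 over Slc17a7 neurons, which reversed to a log2 ratio of 0.20 when cells needed 1000 genes and could hold no more than 5% of mitochondrial UMIs. That filter gave 352 genes higher than in Slc17a7 neurons, 122 Slc17a6 neurons and Ntng1 in 51.6% of them. With 2 UMIs of the defining genes, 474 genes were higher and 464 lower than in Slc17a7 neurons and 262 higher than in Gad neurons, in 66 Slc17a6 neurons with Ntng1 in 54.5%. Without cells with over 1% of UMIs in lists of other cell types, Ntng1 was found in 51.8%. Without cells above the 95th percentile of UMIs, 96 genes were higher and 162 lower than in Gad neurons. Equal weight per suffix gave 344 genes higher than in Slc17a7 neurons, and 351 higher and 653 lower than in Gad neurons. A pseudocount of 10 CPM left 85 genes higher than in Gad neurons. By construction the minimum level moved every count: 10 CPM gave 631 higher and 754 lower (Slc17a7) and 489 and 1110 (Gad), and 200 CPM gave 26 and 62 (Slc17a7) and 21 and 105 (Gad). Thinning to 1000 UMIs gave Ntng1 in 33.3% and Shox2 in 4.68% of cells. With each cell weighing the same, an alternative chosen after seeing the data, 167 genes were lower than in Gad neurons. Other causes of these moves were not tested.

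Leaving out each suffix in turn gave 115 to 191 Slc17a6 neurons, with Ntng1 in 42.6% to 46.2% and Shox2 in 11.2% to 14.6%. It gave 205 to 337 genes higher and 246 to 387 lower than in Slc17a7 neurons, and 145 to 288 higher and 325 to 569 lower than in Gad neurons, and the highest counts were those without suffix 3.

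Of the 20 thalamic genes, 9 to 14 were called higher than in Slc17a7 neurons under each alternative except the 200 CPM minimum (2 of 2 at the level), and 0 lower. Over Gad neurons the count was 5 of 14 with 10 CPM added, 5 of 12 with 200 genes and 20% mitochondrial UMIs, 6 of 15 without suffix 4 and 11 of 16 with 2 UMIs of the defining genes. TMM scaling shifts log2 ratios over Slc17a7 neurons by -0.11 before the 1 CPM is added, and left 10 of 14 thalamic genes called higher with a median of 1.12. No paired analysis was possible because each group is 1 sample. With 1.64 CPM per UMI, genes under 4.93 CPM in Slc17a6 neurons cannot be told from 0.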
